A study of Anguilla japonica with 6 samples.

Results

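The proteasome subunits, proteasome assembly factors, ubiquitin-activating (E1) enzymes and ubiquitin-conjugating (E2) enzymes of the female Japanese eel (Anguilla japonica) pituitary are described here gene by gene. Members were taken by symbol: psma to psmg followed by a digit, pomp, uba1 to uba7, and any symbol that begins with ube2. This gave 78 of 32359 genes, of which 44 are proteasome genes, 5 are E1 genes and 27 are E2 genes. The other 2, psmc3ip and psme3ip1, match by name only, since psmc3ip is a recombination factor and psme3ip1 a partner of an activator. Genes carried under a locus identifier could not enter, so the list is not the whole pathway; psma2, psma7, psmb1, psmd3, psmd7, psmd11, uba1 and ube2n are not analysed here. Expression was measured by RNA-seq of total RNA from the pituitary, with 3 libraries labelled matured and 3 labelled pre-matured, all from females. The labels give no strain, treatment, age in years or batch, and do not state how maturation came about, so an inducing treatment and maturation cannot be told apart. Whether each library is from its own animal is not stated; p-values measure the spread between these samples, which may be technical.

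The proteasome is the barrel-shaped protease that degrades ubiquitin-tagged proteins. Its 20S core is a stack of rings, with alpha subunits outside and beta subunits inside, and some of the beta subunits carry the cutting sites. The 19S cap binds the tagged protein, removes the ubiquitin, and unfolds the chain with a ring of ATPases before feeding it to the core. Tagging runs from an E1, which activates ubiquitin, to an E2, which carries it, and then to a ligase that picks the target. Sister routes attach the related proteins SUMO, NEDD8, UFM1 and ISG15. In secretory cells such as those of the pituitary, the route also clears misfolded proteins drawn back out of the endoplasmic reticulum.

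Values are FPKM, which divide reads by the length of a gene and the depth of its library, so levels can be compared between genes. Whole reads could be rebuilt from the values. Depth was 16033675 to 19619964 reads in matured libraries and 18206029 to 19276653 in pre-matured ones. Members had between 8 and 4772 reads in a library, 16 of them at least 1000 in every library and 8 fewer than 100 in some library. The pituitary label was checked against the growth hormone gene gh1 and the lineage factor pou1f1, which were at 208 FPKM or more in every library, whereas the prolactin gene prl is listed at 0 in all libraries except matured 1, at 0.0436 FPKM. The summed level of the 10 hormone cell markers in the table was 26969 to 69592 FPKM in matured libraries and 4971 to 6028 FPKM in pre-matured ones; 3 of the 8 tested, gh1, lhb and scg3, rose, and their part in the results was not tested. Within a group, log2 values correlated across genes at 0.920 to 0.947, and across groups at 0.780 to 0.825. In bulk tissue, fewer cells of a type and less RNA per cell cannot be told apart.

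The members split in both directions rather than moving as a block. Of the 77 members tested, 11 rose and 16 fell in matured pituitaries (limma on log2(FPKM + 1), Benjamini-Hochberg adjusted p under 0.05 over all 17887 genes tested). That is 14.3% higher and 20.8% lower, where 23.4% of all genes tested were higher and 10% lower (21.9% and 10.6% of the 10059 tested genes with a symbol). The median log2 fold change of the members was 0.025, against 0.23 for all genes tested. Groups did not overlap for 21 members that were higher and 22 that were lower, or 27.3% and 28.6%, where the shares over all genes tested were 33.3% and 15.9% (32.3% and 17.3% of those with a symbol). The proteasome genes gave 5 rises and 12 falls among 44. The E2 genes gave 6 and 4 among the 26 tested. With TPM these splits were 11 and 4, and 10 and 1, and with median-ratio scaling 2 and 15, and 3 and 5. Of the 5 E1 genes 0 passed by limma, and 1 of them, uba2, had an unadjusted p under 0.05. The member not tested was ube2d2, an E2 gene with 0.257 to 0.390 FPKM (matured), compared with 0.379 to 1.49 FPKM (pre-matured).

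**Figure D1:**
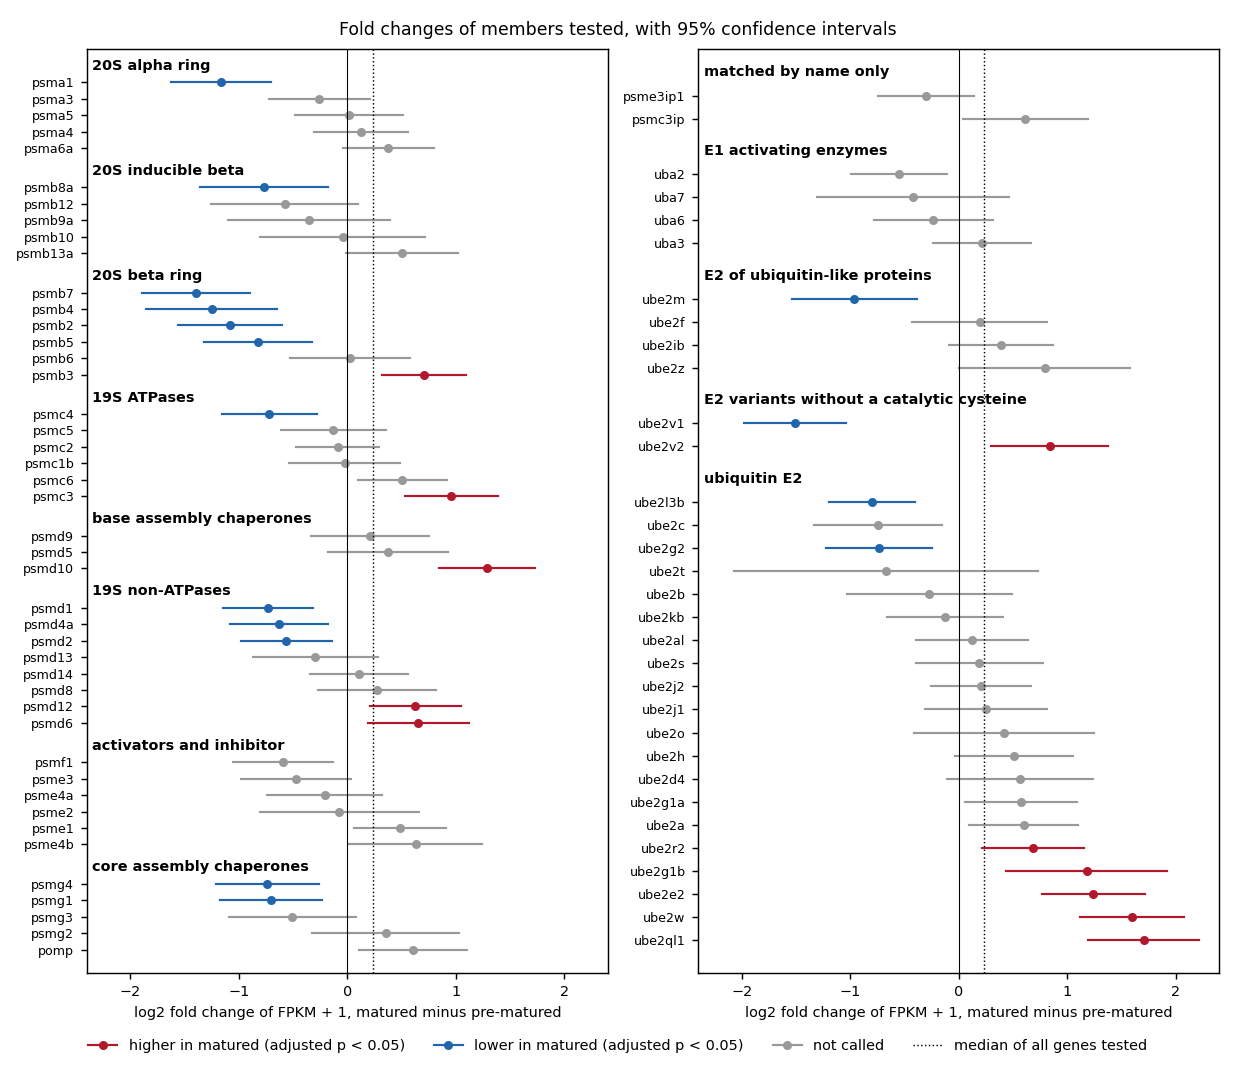
Log2 fold change of FPKM + 1 (x axis, matured minus pre-matured) of members tested, ordered within role classes on the y axis. Points are estimates, bars are 95% confidence intervals from limma, colours mark the calls, and the dotted line marks the median of all genes tested, 0.23; rises and falls stand side by side within the beta ring, the ATPase ring, the lid and base, and the E2 genes.

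The counts depended on how libraries were scaled to each other. With values rescaled to TPM, 21 members rose and 5 fell, or 27.3% and 6.49%, where 32.5% and 5.47% of all genes tested did. Leaving genes above 1% of a library out of the totals gave 23 and 5, or 29.9% and 6.49%, where the shares over all genes were 34.7% and 5.82%. With median-ratio scaling 5 rose and 21 fell, or 6.49% and 27.3%, beside 18.0% and 15.2% of all genes. Over all genes the median moved with them, from 0.23 to 0.54, 0.50 and 0.028. Relative to that median, the members stood at -0.21 with FPKM as deposited, -0.19, -0.15 and -0.25. The offset was smaller with quantile normalization, at -0.063, and with no filter, at -0.083, and it was -0.28 with voom. In the fits without 1 library it ran from -0.26 to -0.085. All 27 called members kept their sign under every alternative tried, and 10 of them kept their call under each of 5 other scalings and models and without any 1 library. Those 10 were psma1, psmb2, psmb4, psmb7 and ube2v1, which were lower, and psmc3, psmd10, ube2e2, ube2ql1 and ube2w, which were higher.

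**Figure D2:**
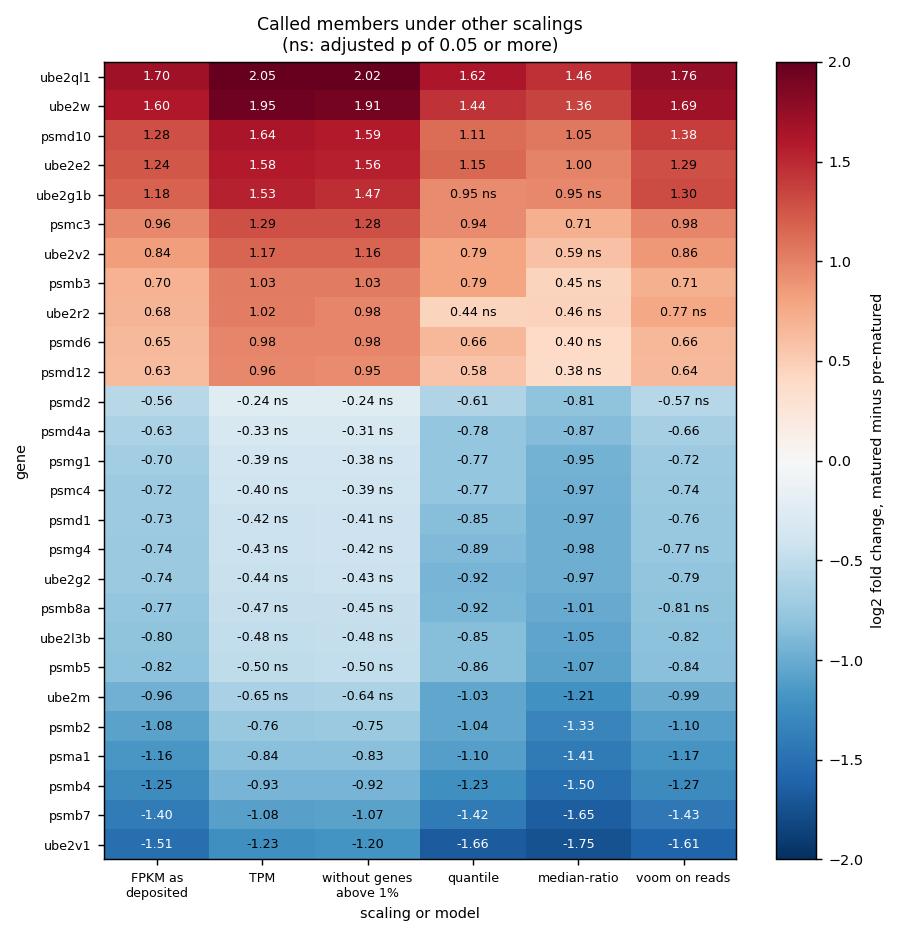
Log2 fold change (colour and printed number) of the 27 called members on the y axis under FPKM as deposited and 5 other scalings or models on the x axis, with ns where the limma adjusted p is 0.05 or more. All genes keep their sign, while the smaller falls lose the call with TPM and with genes above 1% left out of the totals, and several smaller rises lose it with median-ratio scaling.

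In the 20S core, most of the inner ring was lower in matured pituitaries. Of the 6 constitutive beta subunit genes 4 fell and 1 rose, and of the 5 alpha subunit genes 1 fell and 0 rose. Over all genes tested 10% fell and 23.4% rose. The median log2 fold change of the beta genes was -0.95. It was -0.63 with TPM, where 3 fell and 1 rose, and -1.20 with median-ratio scaling, where 4 fell and 0 rose.

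Psmb7, which carries the trypsin-like cutting site, was at 25.05, 31.3 and 35.4 FPKM in matured 1, 2 and 3, compared with 98.5, 81.0 and 67.8 FPKM in pre-matured 1, 2 and 3. Every matured library lay below every pre-matured one, and the mean was 2.69-fold lower (log2 fold change -1.40 ± 0.22 SE, limma adjusted p = 0.00298). Psmb5, the chymotrypsin-like subunit gene, was at 35.9, 31.7 and 29.9 FPKM (matured), compared with 56.2, 74.3 and 46.8 FPKM (pre-matured; log2 fold change -0.82 ± 0.22 SE, limma adjusted p = 0.0211). Its groups did not overlap either, but the call was lost with TPM, with genes above 1% left out of the totals, and without any 1 matured library or pre-matured 2 (highest limma adjusted p = 0.138). Psmb6, which carries the caspase-like site, was at 41.2, 53.6 and 73.4 FPKM (matured), compared with 58.7, 56.6 and 46.2 FPKM (pre-matured). These groups overlapped, and the interval of its log2 fold change ran from -0.53 to 0.58. The catalytic subunits are present in equal number in each core.

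The structural beta genes also differed among themselves. Psmb2 was at 57.4, 41.4 and 56.7 FPKM (matured), compared with 127, 95.9 and 107 FPKM (pre-matured; log2 fold change -1.08 ± 0.21 SE, limma adjusted p = 0.00652). Psmb4 was at 29.1, 43.6 and 57.4 FPKM against 118, 88.4 and 98.0 FPKM (log2 fold change -1.25 ± 0.26 SE, limma adjusted p = 0.00893). Neither gene had overlapping groups, and matured 1 was the lowest library for psmb4. Psmb3 went the other way, with 132, 131 and 150 FPKM (matured), compared with 83.0, 83.1 and 85.6 FPKM (pre-matured; log2 fold change 0.70 ± 0.17 SE, limma adjusted p = 0.0150). Its pre-matured values lay within 1.03-fold of each other. The call of psmb3 was lost with median-ratio scaling (limma adjusted p = 0.108) and without matured 1 or matured 3.

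Among alpha genes, psma1 stood apart. It had the highest FPKM of any member, 216, 154 and 169 in pre-matured libraries, against 69.8, 82.2 and 85.1 in matured ones (log2 fold change -1.16 ± 0.20 SE, limma adjusted p = 0.00411). Psma3, psma4, psma5 and psma6a lay between 37.6 and 96.8 FPKM in every library, and none passed the test, with log2 fold changes of -0.26, 0.12, 0.016 and 0.38. Psma6a was higher in every matured library than in any pre-matured one and passed with TPM (limma adjusted p = 0.0242).

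Summed over the 11 constitutive core genes, the level was 629, 693 and 784 FPKM (matured), compared with 1047, 879 and 866 (pre-matured). As a share of all FPKM it was 0.120%, 0.139% and 0.144% against 0.147%, 0.142% and 0.135%, so the groups did not overlap on the first scale and overlapped on the second. The spread over the 11 genes within a library, as a coefficient of variation, was 45.9% to 51.6% in matured and 36.7% to 50.1% in pre-matured libraries.

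**Figure D3:**
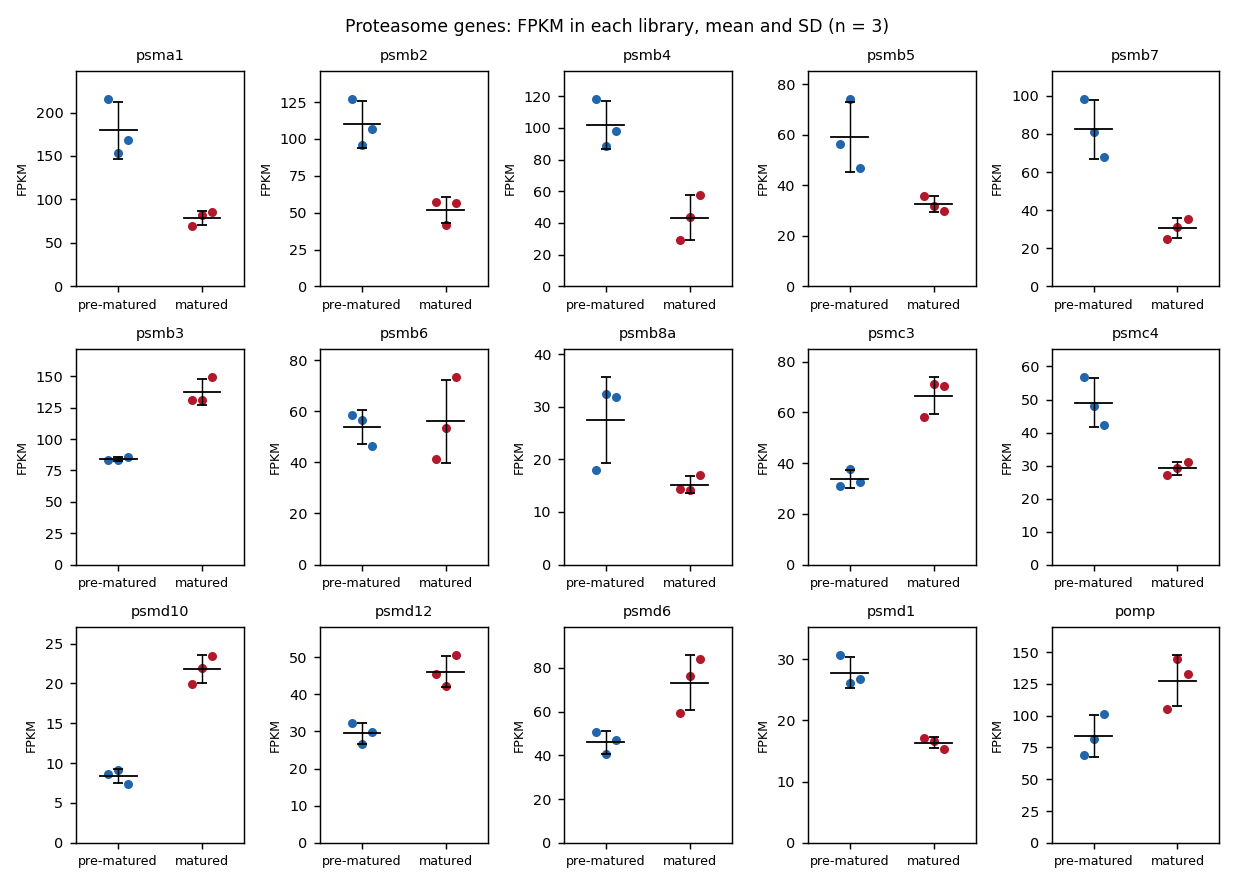
FPKM (y axis, from 0) of 15 proteasome genes in the 3 pre-matured (blue) and 3 matured (red) libraries, with the mean (wide line) and SD (bar). Psma1, psmb2, psmb4, psmb5 and psmb7 are lower in all matured libraries, psmb3, psmc3, psmd10, psmd12 and psmd6 are higher in all of them, and psmb6 overlaps.

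Ratios between subunits of the same particle stay the same when all values of a library are multiplied by 1 factor. Quantile normalization is not of that kind and can change them. The pairs given here were chosen after the values were seen, so they are described and not tested. Psmb3 over psmb7 was 5.25, 4.19 and 4.22 in matured and 0.843, 1.03 and 1.26 in pre-matured libraries. Psmb6 over psmb7 was 1.64, 1.71 and 2.07 against 0.596, 0.699 and 0.681. Both ratios were higher in every matured library. Psmb7 was above psmb6 in every pre-matured library and below it in every matured one, while psmb3 was already above psmb7 in pre-matured 2 and 3. Psma5 over psma1 was 0.930, 1.14 and 1.105 against 0.449, 0.505 and 0.435.

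The inducible beta subunits replace the catalytic ones in the immunoproteasome, the form that cuts peptides for antigen presentation. Of the 5 such genes tested, 1 fell and 0 rose, where 10% of all genes tested fell and 23.4% rose. With TPM 0 fell and 1 rose, beside 5.47% and 32.5% of all genes. Psmb8a, the counterpart of psmb5, was at 14.3, 14.2 and 17.1 FPKM (matured), compared with 18.0, 32.5 and 31.9 FPKM (pre-matured; log2 fold change -0.77 ± 0.26 SE, limma adjusted p = 0.0493). This value sat next to the threshold, and the call was lost with TPM, with genes above 1% left out of the totals, with voom, with a pseudocount of 0.1, with no filter, and without any 1 library except pre-matured 1. Psmb9a, the counterpart of psmb6, was at 19.6, 12.4 and 31.8 FPKM against 20.4, 27.2 and 30.5 FPKM, and psmb10, the counterpart of psmb7, at 5.07, 8.35 and 3.62 against 7.73, 3.93 and 5.69 FPKM. Both overlapped between groups. Psmb12 and psmb13a, fish relatives of these subunits, had log2 fold changes of -0.58 and 0.50 and did not pass (limma adjusted p = 0.165 and 0.120); psmb13a passed with TPM (limma adjusted p = 0.0383).

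As a share of each inducible gene and its counterpart together, psmb8a made up 28.5%, 31.0% and 36.4% in matured and 24.3%, 30.4% and 40.6% in pre-matured libraries. The psmb9a share was 32.3%, 18.8% and 30.2% against 25.8%, 32.4% and 39.7%, so both shares overlapped between groups. The psmb10 share was 16.8%, 21.0% and 9.28% against 7.28%, 4.63% and 7.74%. It was higher in every matured library, with psmb10 itself overlapping between groups and psmb7 lower. Set against psmb7 too, psmb13a made up 39.7%, 31.6% and 32.2% in matured and 8.06%, 14.8% and 13.6% in pre-matured libraries, again higher in every matured one. The psmb12 share, taken with psmb6, lay the other way without overlap, at 8.76%, 9.75% and 10.99% against 12.6%, 16.8% and 15.7%. Immune cell markers were measured beside these genes. Of 18 found in the table, 13 were tested, of which 2 rose, csf1ra and c1qc, and 0 fell. The summed level of the 18 was 1109 to 1520 FPKM (matured), compared with 1099 to 1466 (pre-matured). Most of that sum came from b2m and cd74b. B2m was at 397 to 839 FPKM against 400 to 521 FPKM, and cd74b at 433 to 541 against 411 to 826 FPKM. The leukocyte gene ptprc was at 4.32 to 9.56 FPKM (matured), compared with 5.07 to 10.1 FPKM (pre-matured). The part of such cells in the psmb8a difference was not tested.

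In the 19S cap 3 of 14 subunit genes rose and 4 fell, with a median log2 fold change of -0.058. With TPM 4 rose and 0 fell, and with median-ratio scaling 1 rose and 4 fell. Over all genes tested 23.4% rose and 10% fell, or 32.5% and 5.47% with TPM and 18.0% and 15.2% with median-ratio scaling. Within the ATPase ring, psmc3 was at 58.1, 71.2 and 70.4 FPKM (matured), compared with 31.1, 37.8 and 32.4 FPKM (pre-matured; log2 fold change 0.96 ± 0.19 SE, limma adjusted p = 0.00654). Psmc4, another ATPase of the ring, was at 27.2, 29.3 and 31.1 FPKM against 56.8, 48.0 and 42.2 FPKM (log2 fold change -0.72 ± 0.19 SE, limma adjusted p = 0.0211). Neither gene had overlapping groups, and psmc3 over psmc4 was 2.13, 2.43 and 2.26 in matured and 0.547, 0.787 and 0.767 in pre-matured libraries. The fall of psmc4 lost its call with TPM, with genes above 1% left out of the totals, and without any 1 matured library or pre-matured 1 (highest limma adjusted p = 0.155).

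The other ATPase genes did not pass. Psmc6 was at 60.5, 65.1 and 61.6 FPKM (matured), compared with 48.8, 38.5 and 44.2 FPKM (pre-matured), with groups apart and a limma adjusted p of 0.0591, or 0.0107 with TPM. Psmc2, the most highly expressed ATPase gene on average, overlapped between groups, at 69.5 to 78.4 FPKM against 76.9 to 81.6 FPKM, and the interval of its log2 fold change ran from -0.47 to 0.30. Psmc1b and psmc5 had intervals of -0.54 to 0.49 and -0.62 to 0.35.

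Among the 8 non-ATPase subunit genes 2 rose and 3 fell, where 23.4% of all genes tested rose and 10% fell. With TPM 2 rose and 0 fell, with median-ratio scaling 0 and 3, and with no filter 1 and 1. Without matured 2 or matured 3, 0 rose and 0 fell. Psmd1 and psmd2, the large scaffold subunits of the base, were both lower: psmd1 was at 17.1, 16.5 and 15.4 FPKM (matured), compared with 30.6, 26.0 and 26.7 FPKM (pre-matured; log2 fold change -0.73 ± 0.18 SE, limma adjusted p = 0.0169). Psmd2, named after its values were seen, went from 53.0 ± 3.75 to 35.6 ± 4.09 FPKM, and psmd4a, a ubiquitin receptor gene named likewise, from 23.6 ± 1.32 to 15.01 ± 2.33 FPKM (mean ± SD of 3; adjusted p by limma = 0.0441 and 0.0390). Both lost the call whichever 1 of the 6 libraries was left out. Psmd6 and psmd12, subunits of the lid, were higher. Psmd12 was at 45.5, 42.2 and 50.6 FPKM against 32.2, 26.6 and 29.8 FPKM, and psmd6 at 59.5, 76.2 and 84.0 FPKM against 50.7, 40.4 and 46.8 FPKM (limma adjusted p = 0.0304 and 0.0383). Psmd14, the lid enzyme that removes ubiquitin from the incoming protein, overlapped between groups, at 35.7 to 41.6 against 31.2 to 42.0 FPKM, as did psmd8 and psmd13, with log2 fold changes of 0.27 and -0.29. The calls of psmd6 and psmd12 were lost with median-ratio scaling (limma adjusted p = 0.212 and 0.210) and without matured 2, matured 3, pre-matured 2 or pre-matured 3, and that of psmd12 also without matured 1. Those of psmd1, psmd2 and psmd4a were lost with TPM and with genes above 1% left out of the totals. That of psmd2 was also lost with voom, and that of psmd1 without any 1 matured library.

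Psmd6 and psmd12, the lid genes that rose, were also set against the base scaffold gene psmd1, again as ratios chosen after the values were seen. Psmd6 over psmd1 was 3.48, 4.61 and 5.46 in matured and 1.65, 1.55 and 1.75 in pre-matured libraries. Psmd12 over psmd1 was 2.66, 2.55 and 3.29 against 1.05, 1.02 and 1.11. The summed level of the 14 genes was 503, 574 and 594 FPKM (matured), compared with 540, 529 and 513 (pre-matured), which overlap. As a share of all FPKM it was 0.0960%, 0.115% and 0.109% against 0.0758%, 0.0852% and 0.0800%, higher in every matured library. Its coefficient of variation over genes was 57.6% to 60.6% in matured libraries and 50.3% to 52.1% in pre-matured ones, without overlap.

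With FPKM as deposited, assembly factors also divided. Psmd10 (gankyrin), a chaperone of the ATPase base, was at 19.9, 21.9 and 23.5 FPKM (matured), compared with 8.63, 9.10 and 7.36 FPKM (pre-matured), a 2.61-fold difference of means (log2 fold change 1.28 ± 0.19 SE, limma adjusted p = 0.00268). It was the largest rise among the proteasome genes called. The other base chaperones, psmd5 and psmd9, overlapped between groups and had log2 fold changes of 0.37 and 0.21. Of the 5 factors that assemble the core, 2 fell and 0 rose, where 10% of all genes tested fell and 23.4% rose. With TPM 0 fell and 1 rose, beside 5.47% and 32.5% of all genes. With median-ratio scaling 3 fell and 0 rose, beside 15.2% and 18.0%. Psmg1 was at 21.4, 27.3 and 30.6 FPKM (matured), compared with 37.9, 45.4 and 46.6 FPKM (pre-matured), and psmg4 at 12.5, 16.1 and 13.6 FPKM against 22.3, 28.6 and 21.6 FPKM (limma adjusted p = 0.0307 and 0.0260). Both calls were lost with TPM, with genes above 1% left out of the totals, without matured 1 and without pre-matured 2. That of psmg1 was also lost without matured 2 or pre-matured 3, and that of psmg4 with voom and without matured 3.

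Psmg1 and psmg4 each work with a partner. Psmg2, the partner of psmg1, overlapped between groups (log2 fold change 0.35, interval -0.32 to 1.03). Psmg3, the partner of psmg4, was lower in each matured library without passing (4.25 ± 1.098 against 6.41 ± 1.13 FPKM, SD, n = 3; limma adjusted p = 0.158). It passed with median-ratio scaling and quantile normalization. Pomp, which guides the final joining of the core and is then degraded, was at 105, 145 and 133 FPKM (matured), compared with 68.7, 81.6 and 101 FPKM (pre-matured). Its groups did not overlap, and its limma adjusted p was 0.0624, or 0.0168 with TPM and 0.0384 with quantile normalization.

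None of the 6 activator and inhibitor genes passed the test, 3 of which, psmf1, psme1 and psme4b, had an unadjusted p under 0.05. Psmf1, an inhibitor of the core in vitro, was at 19.6, 22.4 and 15.3 FPKM (matured), compared with 28.7, 28.2 and 30.2 FPKM (pre-matured; limma adjusted p = 0.0514), and passed with median-ratio scaling, quantile normalization and a filter of 5 FPKM (limma adjusted p = 0.0132, 0.0220 and 0.0456). Psme1 and psme2 encode the joint subunits of the PA28 activator. Psme1 was at 77.3, 96.2 and 91.7 FPKM against 69.4, 62.6 and 56.7 FPKM (limma adjusted p = 0.0757), and passed with TPM and with genes above 1% left out of the totals (limma adjusted p = 0.0135 and 0.00896). Psme2 was at 8.41, 18.1 and 8.78 FPKM against 8.73, 13.2 and 13.8 FPKM. Psme1 over psme2 was 5.33 to 10.4 in matured and 4.11 to 7.95 in pre-matured libraries. The duplicate genes of the PA200 activator differed in sign without passing, with log2 fold changes of 0.63 for psme4b and -0.21 for psme4a, and their ratio overlapped between groups. Psme4b passed with TPM and with genes above 1% left out of the totals (limma adjusted p = 0.0309 and 0.0229). Psme3, the nuclear member of the PA28 family, was lower in each matured library without passing (9.67 ± 0.516 against 14.01 ± 3.30 FPKM, SD, n = 3; limma adjusted p = 0.133), and passed with median-ratio scaling and quantile normalization (limma adjusted p = 0.0370 and 0.0405).

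At the head of the tagging routes, no E1 gene passed the test. Uba3, the catalytic subunit of the NEDD8 E1, was at 31.0, 41.5 and 30.4 FPKM (matured), compared with 30.9, 27.1 and 29.5 FPKM (pre-matured). Uba6, an E1 of ubiquitin itself, was at 12.96 ± 3.56 against 15.1 ± 1.14 FPKM (mean ± SD of 3; adjusted p by limma = 0.483). Uba2, the catalytic subunit of the SUMO E1, was lower in each matured library, at 14.0, 11.2 and 12.3 against 18.0, 17.9 and 20.4 FPKM, with a limma adjusted p of 0.0558 (0.0186 with median-ratio scaling). Uba7, the E1 of ISG15, was spread 2.59-fold among matured and 2.55-fold among pre-matured libraries.

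Of the 4 E2 genes counted with the related modifiers 1 fell and 0 rose, where 10% of all genes tested fell and 23.4% rose. With TPM 0 fell and 1 rose, beside 5.47% and 32.5% of all genes. With genes above 1% left out of the totals 0 fell and 2 rose, beside 5.82% and 34.7%. Ube2m, the main E2 of NEDD8, was at 19.9, 24.3 and 25.3 FPKM (matured), compared with 65.1, 35.7 and 41.5 FPKM (pre-matured; log2 fold change -0.96 ± 0.25 SE, limma adjusted p = 0.0204). Pre-matured 1 was the highest library, and the groups did not overlap. The call was lost with TPM (limma adjusted p = 0.0642), with genes above 1% left out of the totals and without matured 1. Ube2f, the other NEDD8 E2, overlapped between groups (4.58 ± 0.417 against 4.01 ± 1.33 FPKM, SD, n = 3). Ube2ib, an E2 of SUMO, was at 26.1, 30.6 and 23.0 FPKM against 19.8, 23.6 and 16.9 FPKM and did not pass (limma adjusted p = 0.186, or 0.0486 with TPM). Ube2z, the E2 that works with Uba6, was counted here although Uba6 is an E1 of ubiquitin itself. Ube2z had at most 4.94 FPKM, and its log2 fold change of 0.79 did not pass (limma adjusted p = 0.109).

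**Figure D4:**
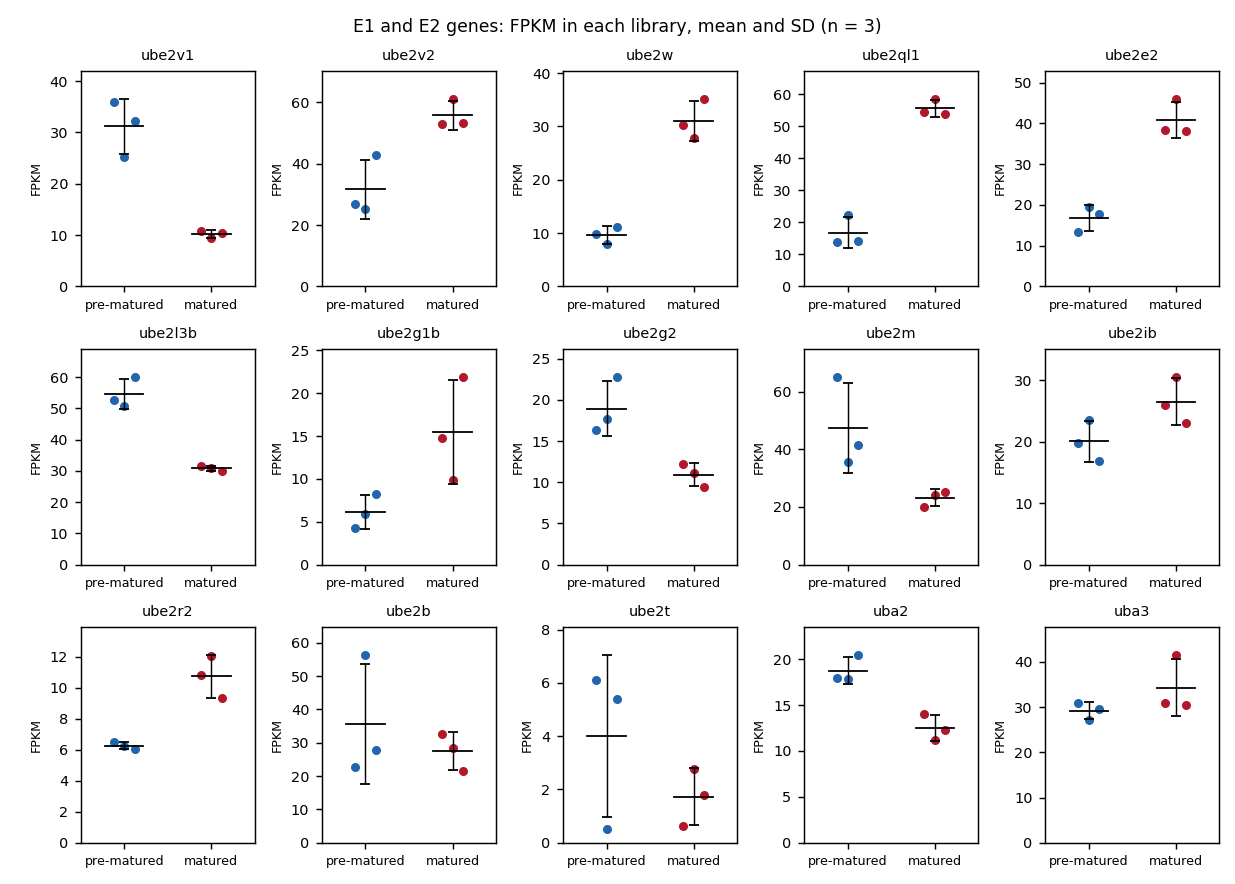
FPKM (y axis, from 0) of 15 E1 and E2 genes in the 3 pre-matured (blue) and 3 matured (red) libraries, with the mean (wide line) and SD (bar). Ube2v1 is lower and ube2v2 higher in all matured libraries, ube2w, ube2ql1 and ube2e2 are higher in all matured libraries, and 1 pre-matured library stands apart for ube2b and for ube2t.

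The E2 variants Ube2v1 and Ube2v2 have no catalytic cysteine of their own and pair with Ube2n to build chains linked through lysine 63 of ubiquitin, a signal used in DNA repair and signalling more than in degradation. The genes of both variants were called, in opposite directions. Ube2v1 was at 10.8, 9.39 and 10.3 FPKM (matured), compared with 35.9, 25.3 and 32.3 FPKM (pre-matured), 3.06-fold lower (log2 fold change -1.51 ± 0.21 SE, limma adjusted p = 0.00195). This was the largest fall of any member. Ube2v2 was at 52.8, 61.2 and 53.4 FPKM against 26.7, 25.3 and 42.8 FPKM (log2 fold change 0.84 ± 0.24 SE, limma adjusted p = 0.0264). Its call was lost with median-ratio scaling (limma adjusted p = 0.0809) and without any 1 library except pre-matured 3, the highest of the pre-matured libraries for this gene. Ube2v2 over ube2v1 was 4.89, 6.51 and 5.17 in matured and 0.745, 1.0 and 1.33 in pre-matured libraries. The genes were close to each other in pre-matured libraries, and ube2v2 was at least 4.89-fold above ube2v1 in every matured one. The variants are alike in sequence in other vertebrates, and the sources used here do not say how reads shared by such genes were counted.

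**Figure D5:**
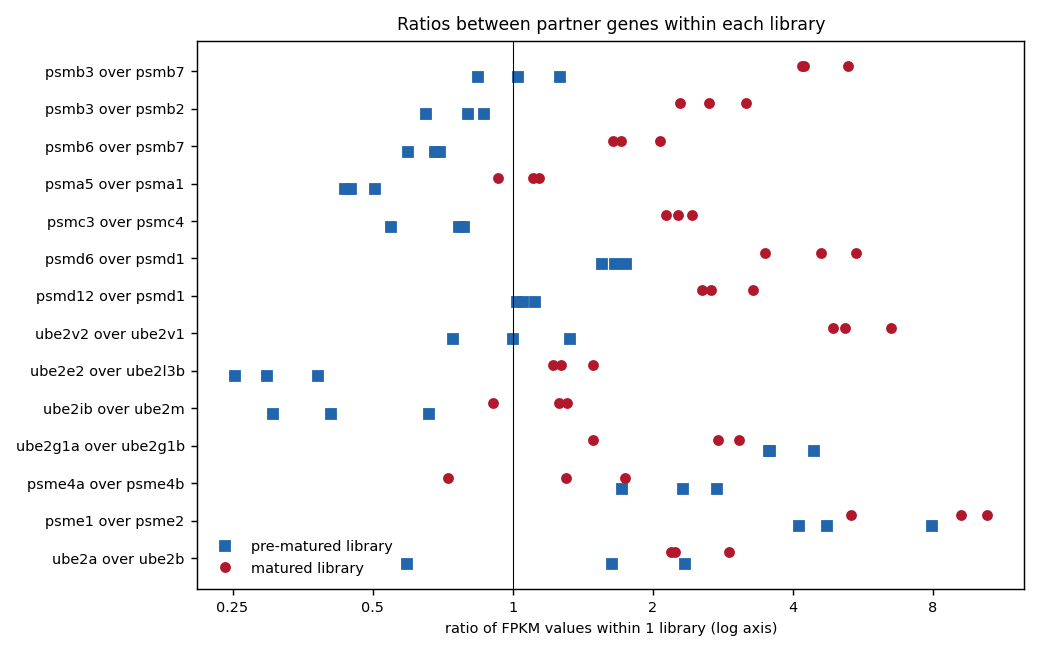
Ratio of the FPKM values of paired genes within each library (x axis, log scale), with squares for pre-matured and circles for matured libraries and 1 pair per row. The pairs were chosen after the values were seen, so their direction is described and not tested. Some pairs, such as ube2ib with ube2m, do not belong to the same particle or route. Ratios with psmb3, psmb6, psma5, psmc3, psmd6, psmd12, ube2v2, ube2e2 or ube2ib as the first gene are higher in all matured libraries. That of ube2g1a over ube2g1b is lower in all of them, and the last 3 pairs overlap.

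Among the remaining E2 genes of ubiquitin 5 of 20 rose and 2 fell, shares near the 23.4% and 10% of all genes tested. The largest rises of all members, those of ube2ql1 and ube2w, were here. Ube2ql1 was at 54.5, 58.6 and 53.8 FPKM (matured), compared with 13.9, 22.4 and 14.1 FPKM (pre-matured; log2 fold change 1.70 ± 0.23 SE, limma adjusted p = 0.00181). Ube2w, which tags the amino terminus of its targets, was at 30.3, 27.7 and 35.2 FPKM against 9.86, 7.94 and 11.2 FPKM (log2 fold change 1.60 ± 0.21 SE, limma adjusted p = 0.00174). Ube2e2 was at 38.5, 46.1 and 38.1 FPKM against 13.3, 19.4 and 17.8 FPKM (log2 fold change 1.24 ± 0.21 SE, limma adjusted p = 0.00381). In each of these genes the lowest matured library was well above the highest pre-matured one, and the mean differed 3.31-fold, 3.22-fold and 2.42-fold.

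Ube2g1b, an E2 gene with a duplicate, was at 14.7, 9.88 and 21.9 FPKM (matured), compared with 4.30, 5.94 and 8.21 FPKM (pre-matured; log2 fold change 1.18 ± 0.33 SE, limma adjusted p = 0.0248). The call was lost with median-ratio scaling, with quantile normalization, with no filter, and without matured 1, matured 3, pre-matured 1 or pre-matured 2. Its duplicate ube2g1a was the higher of the pair in every library, at 40.7, 30.3 and 32.7 FPKM against 19.1, 21.2 and 29.1 FPKM, and did not pass (limma adjusted p = 0.0819, or 0.0224 with TPM). Ube2g1a over ube2g1b was 2.77, 3.07 and 1.49 in matured and 4.43, 3.56 and 3.55 in pre-matured libraries. Ube2g2 fell, at 12.2, 11.2 and 9.40 FPKM (matured), compared with 16.4, 17.7 and 22.8 FPKM (pre-matured, limma adjusted p = 0.0296). Its call was lost with TPM, with genes above 1% left out of the totals, and without any 1 matured library or pre-matured 3. In mammals Ube2g2 tags misfolded proteins of the endoplasmic reticulum. The E2 genes ube2j1 and ube2j2, whose proteins sit in the membrane of that compartment, overlapped between groups at 5.09 ± 0.442 against 4.20 ± 1.099 FPKM and 8.86 ± 0.777 against 7.56 ± 0.526 FPKM (SD, n = 3). Ube2g2, ube2l3b and ube2r2 were named after their values were seen.

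Ube2l3b, an E2 that hands ubiquitin only to ligases of the HECT and RBR classes, was at 31.6, 30.9 and 30.0 FPKM (matured), compared with 52.7, 50.9 and 60.1 FPKM (pre-matured; log2 fold change -0.80 ± 0.17 SE, limma adjusted p = 0.010). It kept its call without any 1 library and lost it with TPM (limma adjusted p = 0.0957) and when genes above 1% were left out of the totals. Ube2r2, an E2 of cullin ligases, was at 10.8, 12.1 and 9.34 FPKM against 6.50, 6.27 and 6.06 FPKM (limma adjusted p = 0.0343), and its call was lost with median-ratio scaling, quantile normalization and voom, and without any 1 library except pre-matured 1. Ube2e2 over ube2l3b was 1.22, 1.49 and 1.27 in matured and 0.253, 0.382 and 0.297 in pre-matured libraries.

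Some E2 genes were set apart by 1 library. Ube2b, with ube2a an E2 of the RAD6 type that acts in DNA damage tolerance and on histones, was at 22.9, 56.3 and 27.7 FPKM in pre-matured libraries and 32.8, 28.3 and 21.5 FPKM in matured ones, so that pre-matured 2 alone was high. Ube2a had the highest mean FPKM of the E2 genes, at 73.3, 62.1 and 62.7 FPKM against 53.5, 33.4 and 45.2 FPKM, with a limma adjusted p of 0.0655, or 0.0105 with TPM. Pre-matured 2 was the library with the lowest ube2a, and the ratio of ube2a to ube2b was 0.593 there against 1.63 to 2.91 in all other libraries. Ube2t, the E2 of the Fanconi anemia repair route, was at 6.10, 0.527 and 5.38 FPKM in pre-matured libraries, an 11.6-fold range on 108, 9 and 90 reads, and at 0.611, 2.78 and 1.81 FPKM in matured ones. It did not pass with all libraries (limma adjusted p = 0.425) and passed without pre-matured 2 (log2 fold change -1.39, limma adjusted p = 0.0355).

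Of the E2 genes that act with the anaphase-promoting complex in mitosis, ube2c was at 7.18, 12.3 and 12.7 FPKM (matured), compared with 21.6, 16.4 and 17.03 FPKM (pre-matured), with groups apart and a limma adjusted p of 0.0539. It passed as lower with median-ratio scaling and quantile normalization. Ube2s overlapped between groups, at 8.77 ± 1.75 against 7.65 ± 1.96 FPKM (SD, n = 3). Markers of dividing cells were low in both groups. The 6 in the table summed to 6.13 to 9.79 FPKM (matured), compared with 8.74 to 10.3 FPKM (pre-matured). Of the 3 tested, 0 passed in either direction, and their log2 fold changes differed in sign. Ccnb1 had -0.73, with an unadjusted limma p under 0.05 and an adjusted p of 0.109, whereas mcm2 had -0.40 and cdk1 0.51. The part of dividing cells in the ube2c values was not tested. Ube2h and ube2o, E2 genes known from maturing red cells in mammals, did not pass (limma adjusted p = 0.130 and 0.406). The groups of ube2h did not overlap, and it passed as higher with TPM and with genes above 1% left out of the totals. Of the erythrocyte markers alas2 and epb41b, the heme synthesis gene alas2 fell (limma adjusted p = 0.0396), from 76.6, 7.12 and 14.97 FPKM in pre-matured to 2.39, 3.04 and 3.40 FPKM in matured libraries, while ube2h had 8.17 ± 1.73 FPKM (matured) and 5.38 ± 0.710 FPKM (pre-matured; SD, n = 3). Ube2d4, ube2kb and ube2al had intervals of log2 fold change that include 0.

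The genes that surround these members in the pathway were counted from lists of symbols. Of 54 deubiquitinase genes tested 11 rose and 3 fell, and of 41 ligase genes of the HECT, RBR and related classes 11 rose and 3 fell. That is 20.4% and 26.8% higher, near the 23.4% of all genes tested, and 5.56% and 7.32% lower, where 10% of all genes were. Their median log2 fold changes were 0.32 and 0.34, against 0.23 for all genes. With TPM the counts were 19 and 1, and 18 and 0, or 35.2% and 43.9% higher beside 32.5% of all genes, and with median-ratio scaling 8 and 6, and 10 and 5. The ligase gene ubr3 rose from 6.79 ± 1.58 to 24.6 ± 3.78 FPKM and herc3 from 5.54 ± 0.566 to 17.03 ± 2.27 FPKM (mean ± SD of 3; adjusted p by limma = 0.00181 and 0.00223). The deubiquitinase gene usp36 rose (by 1.78 on the log2 scale, limma adjusted p = 0.00337) and usp38 fell (log2 fold change -1.39, limma adjusted p = 0.00249).

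Of 13 genes of proteins that sit on the proteasome or regulate it, 2 rose, ublcp1 and uchl5, and 3 fell, usp14, ecpas and txnl1, or 15.4% and 23.1%. Over all genes tested 23.4% rose and 10% fell. With TPM, and with genes above 1% left out of the totals, 2 rose and 0 fell, and with median-ratio scaling 1 rose and 6 fell. The shares over all genes were then 32.5% and 5.47%, 34.7% and 5.82%, and 18.0% and 15.2%, in that order. Without matured 1 the counts were 1 and 0, and without matured 3 they were 2 and 0. Ublcp1, a phosphatase of the 19S cap, rose from 1.82 ± 0.784 to 7.30 ± 1.13 FPKM, and usp14, a deubiquitinase of the cap that is also in the deubiquitinase list, fell from 48.5 ± 3.25 to 28.9 ± 2.41 FPKM (mean ± SD of 3; adjusted p by limma = 0.00449 and 0.0156). The usp14 call was lost in those same fits except median-ratio scaling (limma adjusted p = 0.0607 to 0.150). Of 19 genes of shuttle factors and of the p97 unfoldase route 2 rose, nploc4 and ufd1l, and 4 fell, plaa, faf2, faf1 and rad23ab. That is 10.5% and 21.1%, or 21.1% and 15.8% with TPM, where 4 rose and 3 fell. Plaa and faf2, cofactors of p97, fell from 25.9 ± 2.24 to 9.16 ± 2.68 FPKM and from 21.5 ± 2.66 to 9.25 ± 1.11 FPKM (mean ± SD of 3; adjusted p by limma = 0.00350 and 0.00461). In the cullin ligase core 1 of 23 rose, dcun1d2b (log2 fold change 1.48), and 1 fell, nedd8l (log2 fold change -0.90), a gene whose symbol marks it as like NEDD8; 1 and 4 were called with median-ratio scaling and 3 and 0 with TPM. With no filter, with genes above 1% left out of the totals, and without any 1 library except pre-matured 3, 0 of these genes fell. The nedd8l call was therefore lost in those fits and with TPM. Among the members of the NEDD8 route, ube2m fell with the limits given above, and uba3 and ube2f did not pass. Nae1, the partner of uba3 in the NEDD8 E1 but not a member, rose and is counted in the next list.

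A list of 16 genes of ubiquitin-like modifiers and their enzymes was also counted. In it 5 rose, among them pias1b, atg3, nae1 and mocs3, and 1 fell, ufm1, or 31.3% and 6.25%. Over all genes tested the shares were 23.4% and 10%. With median-ratio scaling, quantile normalization and no filter 2 rose, and leaving out 1 library gave 2 or 3 rises. The share that rose with median-ratio scaling was 12.5%, beside 18.0% of all genes. The fall of ufm1 was lost with TPM, with genes above 1% left out of the totals, with voom, with a pseudocount of 0.1, with no filter and in each fit without 1 library. Pias1b, a SUMO ligase gene, rose by 1.85 ± 0.28 on the log2 scale and atg3, the E2 enzyme of the autophagy route, by 1.58 ± 0.27 (SE; limma adjusted p = 0.00252 and 0.00383). The ubiquitin precursor genes ubb and ubc did not pass, with 27.7 ± 12.1 against 40.6 ± 7.89 FPKM and 15.5 ± 8.15 against 12.3 ± 1.51 FPKM (mean ± SD of 3; adjusted p by limma = 0.161 and 0.644). For both, matured 2 was the highest of the matured libraries. Ubb passed without that library, with a log2 fold change of -0.92 (limma adjusted p = 0.0380). With all libraries and median-ratio scaling, 1 of the 2 precursor genes was called lower. Psmc3ip and psme3ip1, the members by name only, did not pass (limma adjusted p = 0.0940 and 0.264).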

How the data were processed

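Per the labels' protocols, TRIzol was used to isolate total RNA and an NEBNext Ultra II RNA kit to prepare the libraries. The submitters' processing notes name CASAVA 1.8; no source used here gives an aligner, a counter, a build or an annotation. The deposited values were read as FPKM from the values alone, which the authors scaled to gene length and depth; RPKM would look the same.

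Reads were rebuilt from ratios between libraries: for 25782 genes above 0 in at least 2 libraries, 100% gave whole reads (relative tolerance about 1e-10), against 0.4% of 2000 scrambled genes. They cover counting error only.

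The age label gave the groups; replicates were numbered by accession, so the numbers do not pair libraries. The test took genes that reached 1 FPKM in 3 libraries or more, on the log2(FPKM + 1) scale, with limma 3.58.1 in R 4.3.3 (trend and robust settings), two-sided. In simulated data for this comparison, 40.6% of 197 genes changed 2-fold and 99.5% of 194 changed 4-fold were recovered, with 11.1% and 6.8% of calls false among 17551 and 17532 genes. The simulation changed 200 genes and assumed the spread between libraries, where 4184 rises and 1797 falls were called in the data. With fewer changed genes a call needs a smaller unadjusted p, so these figures do not measure the recovery here.

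Members and lists were chosen with earlier results of these data known. Genes named are: in each role class the 3 with the smallest p and the highest mean; all of classes of 3 or fewer; the 6 largest rises and 6 largest falls called; catalytic and inducible core genes; duplicate pairs called both ways (0 found); and the 2 smallest p of each of 7 pathway lists. Members named beyond that were chosen after their values were seen, as were the ratios within libraries. The values of some genes that enter the counts are not reported here. The role of psme3ip1 was set after the symbols were seen. Marker lists for endothelium, fibroblasts and glia were also summed: 1 of 8, 1 of 6 and 1 of 5 tested rose and 0 fell. Tables and plots were made with matplotlib 3.10.9, pandas 2.3.3 and numpy 2.4.6 in Python 3.11.15. Alternatives were a pseudocount of 0.1, a filter of 5 FPKM or none, TPM, median-ratio and quantile scaling, totals that leave out genes above 1%, voom on the rebuilt reads, and each library left out in turn.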

Additional observations from a re-analysis of the deposited data

How the results depend on the processing

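Members called higher numbered 11, and 21 with TPM, 5 with median-ratio scaling, and 23 leaving genes above 1% out of the totals; leaving out 1 library gave 5 to 10. Members called lower numbered 16, and 5 with TPM and 5 leaving those genes out; leaving out 1 library gave 6 to 13. Of all 17887 genes tested, 4184 were higher. With a filter of 5 FPKM 2714 were higher, out of a smaller set of 10757 genes tested. Without 1 library 1942 to 3954 were higher. The genes lower numbered 1797, and 978 with TPM and 1041 with genes above 1% left out of the totals. They numbered 2727 with median-ratio scaling, 2896 with quantile normalization and 958 to 1553 without 1 library. Leaving out a matured library lowered the genes tested to between 16696 and 16856, since the filter still asked for 3 libraries. The members tested went from 77 to 76. Whether any of the lost calls follow from that was not tested. A pseudocount of 0.1, no filter, voom on rebuilt reads and leaving out psmc3ip and psme3ip1 kept both member counts within 1.5 times. No called member changed sign under any alternative tried. Of the 27 calls, 10 held under all 5 scalings and models and all 6 fits without 1 library. Why the other calls were lost was not tested. The simulated data held 200 changed genes, so a call there needed a smaller unadjusted p than in the data. They therefore do not measure how many 2-fold changes were missed here. A member not called is not shown to be level.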
